A study of Cavia porcellus with 30 samples.

Results

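The comparison was between renal proximal tubular epithelial cells kept in 40 µM and in 30 µM mercuric chloride for 24 h. The libraries were chosen by their agent and time labels alone, which gave 5 libraries labelled high dose and 5 labelled low dose, or 10 of the 30 libraries of the series. The cells came from Hartley guinea pigs 6 to 8 weeks old, and after growth and replating were kept in the exposure medium for the last 48 h before the agent was added. This medium served as vehicle, in 5 libraries at 24 h and 5 at 12 h, and each dose also had 5 libraries at 12 h. By the methods of the study, tubules were isolated from the renal cortex after glomeruli had been removed, and the cells that grew out of them were replated as a monolayer, so that filtrate flow was not part of the model. No source says which libraries came from the same animal or culture, and the p-values below therefore measure only the spread between these libraries, which may be technical. Libraries are named here by the last number of their titles. The 30 µM libraries are 25, 26, 27, 28 and 29, and the 40 µM libraries are 31, 33, 34, 35 and 36.

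The proximal tubule reabsorbs most of the filtered solutes and is the main site at which inorganic mercury collects in the kidney. Mercuric ions bind thiol groups of proteins and of glutathione, and cells exposed to them are known to raise metal-binding proteins and enzymes of thiol defence. The 30 µM dose had been selected by the study for little or no loss of viability and the 40 µM dose for the onset of cell death. The question at 24 h was which transcripts still separated these doses. In bulk RNA, fewer cells with a transcript and less of the transcript per cell cannot be told apart. The files carry Ensembl transcript identifiers without gene names, and 0 of the 25824 identifiers matched the gene table at hand. A shortened supplement of the study pairs some of them with numeric gene identifiers, which carry no symbols and none of which is in that table. Gene groups, the role of a transcript and the markers of the labelled cell type could therefore not be examined, and 4 transcripts are given by identifier.

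The libraries were of similar depth. Estimated counts, in which reads that fit several transcripts are shared among them, totalled 24506644 to 35021210 in the 30 µM and 24370900 to 30701551 in the 40 µM libraries. At least 1 count was found for 19057 ± 371 transcripts (SD, n = 5) at 30 µM and 19048 ± 139 at 40 µM, a difference of -8.4 (two-sided exact permutation p = 0.992, where 0.00794 is the smallest p that 5 against 5 libraries allow). Without library 29 the difference was -138.6 (two-sided exact permutation p = 0.341). Library 29 stood apart from the other 30 µM libraries before any comparison of dose. It held the highest value of the 10 libraries in 25% of the 16664 tested transcripts and the lowest in 23.9%, against 5.25% to 14.3% and 5.85% to 16.9% in the other 9. Its median Pearson r with the libraries of its own dose was 0.975 over log2(CPM + 1) of these transcripts, which are not independent, against 0.983 to 0.989 in the others. Library 36 came next, with the highest value in 14.3% and the lowest in 16.9%. Each main result is given with and without library 29.

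Few transcripts still separated the doses at 24 h. The quasi-likelihood test of edgeR, with a Benjamini-Hochberg adjusted p under 0.1 as the threshold of the study, called 597 of 16664 transcripts (3.58%). Of these, 284 (1.7% of those tested) were higher and 313 (1.88%) lower at 40 µM. Without library 29, 1053 of 16901 transcripts (6.23%) were called, 505 higher (2.99%) and 548 lower (3.24%). Leaving out any of the other 9 libraries lowered the count. It was 344 (2.05%), 332 (1.97%), 275 (1.63%) and 276 (1.64%) without library 25, 26, 27 and 28 of the 30 µM group. Without library 31, 33, 34, 35 and 36 of the 40 µM group it was 558 (3.32%), 263 (1.56%), 361 (2.15%), 416 (2.47%) and 378 (2.24%). The balance of directions was not the same in every fit. With limma on log2(TPM + 1), where the test, the unit and the scaling between libraries all differ, 60.8% of the calls were higher at 40 µM, in place of 47.6%.

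The calls made with library 29 were nearly all made without it. Both fits called 584 transcripts (3.5% of those tested), 278 higher and 306 lower at 40 µM, which is 97.8% of the calls with library 29 and 55.5% of those without it. No call had the opposite sign without the library. The 468 transcripts that passed the test only after its removal and were tested in both fits had a median size of 0.16 log2 units with the library and 0.21 without it, and 226 of them were higher at 40 µM. The 13 transcripts called only with the library had median sizes of 0.54 and 0.53. Leaving out any other single library kept fewer of the 597 calls, from 43.6% (library 33) to 81.2% (library 31). The biological coefficient of variation, the spread between libraries of 1 dose beyond counting error, was 20.9% with library 29 and 18.6% without it. The plot of dose difference against level shows the smaller differences near 0 that were gained without the library.

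**Figure D1:**
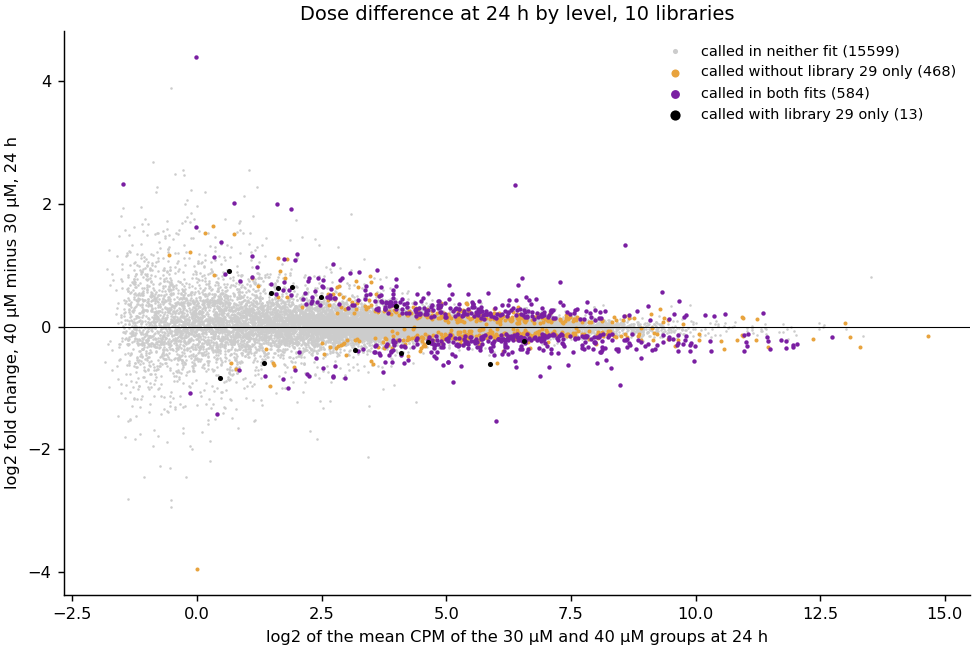
Log2 fold change of 40 µM minus 30 µM at 24 h in the fit of 10 libraries (y) against the log2 mean CPM of both groups (x), 1 point per tested transcript. Purple points (584) were called with and without library 29, orange points (468) only without it and black points (13) only with it, and most orange points lie closer to 0 than the purple ones at the same level.

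Most differences were small. Called log2 fold changes had a median absolute value of 0.28, against 0.10 over all transcripts tested, and 492 of the 597 calls (82.4%) were under 0.5 log2 units. Without library 29 the median was 0.24, and 86.6% of the calls were under 0.5. At least 2-fold changes were called in 19 transcripts (0.114% of those tested), 15 higher and 4 lower at 40 µM. This count was 32 (0.189%) without library 29, 12 without library 33 or 36, and 11 at an adjusted p under 0.05. By other fits it was 8 on log2(TPM + 1), 29 with DESeq2, 38 with all 30 libraries in 1 fit and 65 with limma voom and sample weights. The normalised read counts of the groups did not overlap in 968 tested transcripts (5.81%), of which 529 were called. The 40 µM libraries were the higher ones in 409 (2.45%) and the lower ones in 559 (3.35%), and without library 29 the groups did not overlap in 1586 of the same transcripts (9.52%). The share called went up with the level. Of 862 transcripts with a mean over 5000 counts per library 14.4% were called, 31 higher and 93 lower at 40 µM. Of 2494 with a mean under 50 counts 0.441% were called, 8 higher and 3 lower. The median called size was 1.38 log2 units under 50 counts and 0.25 over 5000. Whether depth or the spread between libraries set this was not tested. Without library 29 the shares called were 23.2% over 5000 and 0.722% under 50 counts.

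The transcripts lower at 40 µM made up more of the RNA than those that were higher. By TPM, a share of transcripts corrected for length, the 313 lower ones summed on average to 6.3% of a 30 µM library and 5.29% of a 40 µM library. The 284 higher ones summed to 2.12% and 2.66%. The lower ones also lay at higher levels, with a median mean count per library of 2263.2, against 903.5 in the higher ones. Median lengths were 3256 bases in the lower and 2963.5 bases in the higher ones, against 2602 over all tested. For calls, the values of this paragraph are from the fit with library 29 only. Fractional estimates, which mark reads shared with another transcript, were found in 49.1% of the calls and in 62% of the transcripts tested. Only 1 transcript went from 0 counts in all libraries of 1 dose to over 3 counts, a low bound, in all libraries of the other. This transcript had 0 counts in all 5 libraries at 40 µM and over 3 counts in each of the 5 libraries at 30 µM. In the opposite direction 1 transcript had 0 counts at 30 µM and at least 1 count in every 40 µM library, and none had over 3 counts in each. With a count in at least 1 library of the other dose, 815 transcripts had 0 counts throughout at 40 µM and 810 at 30 µM.

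Transcripts are named by a rule that asks for a call with and without library 29, no overlap between the groups and, averaged over the libraries, 50 counts or more. It was met by 513 transcripts (3.08% of those tested), 230 higher and 283 lower at 40 µM. Their median difference was 0.31 log2 units in the higher and -0.26 in the lower ones. The 2 largest rises and the 2 largest falls among them are described.

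ENSCPOT00000044307.1 (678 bases, whole estimates) had the largest rise under this rule. Its normalised read count was 27.4, 31.0, 27.0, 24.9 and 29.6 CPM (counts scaled to the TMM-adjusted library size) in libraries 25 to 29 at 30 µM. At 40 µM it was 115, 153, 140.0, 124 and 156 CPM in libraries 31, 33, 34, 35 and 36. The lowest 40 µM library thus lay far above the highest 30 µM library, and library 29 lay within the range of its group. The difference was 2.30 log2 units (SE 0.10, edgeR adjusted p = 1.99e-06), or 4.94-fold. Without library 29 it was 2.32 (SE 0.11, edgeR adjusted p = 1.56e-05). In vehicle at 24 h it was 0.321 ± 0.0837 CPM (SD, n = 5), so that each dose raised it (edgeR log2 fold changes of 6.39, adjusted p = 3.86e-10, and 8.69, adjusted p = 1.39e-10). At 12 h the doses differed by 2.82 (adjusted p = 1.55e-07), and the dose difference was smaller at 24 h by a tested -0.52 log2 units (SE 0.14, adjusted p = 0.0201).

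ENSCPOT00000008335.3 (282 bases, whole estimates) was second. It was at 2.08, 1.49, 0.693, 1.11 and 0.716 CPM in libraries 25 to 29, and at 3.12, 5.45, 2.62, 3.17 and 10.0 CPM in libraries 31, 33, 34, 35 and 36. The groups did not overlap, but library 36 alone was well above the other 40 µM libraries. The difference was 2.00 log2 units (SE 0.44, edgeR adjusted p = 0.0504). Without library 29 it was 1.86 (SE 0.47, edgeR adjusted p = 0.0623). The call was lost without library 26, 27, 28 or 33, with edgeR adjusted p of 0.103, 0.127, 0.134 and 0.122 and differences of 2.07, 1.85, 1.96 and 1.95. Vehicle at 24 h was at 0.177 ± 0.0785 CPM (SD, n = 5), and each dose raised the transcript (log2 fold changes of 2.77, edgeR adjusted p = 0.00119, and 4.77, adjusted p = 2.93e-05). Its dose difference of 2.92 at 12 h (adjusted p = 0.000123) was not called as changed between the times (-0.95, SE 0.56, adjusted p = 0.305), although it was without library 36 (-1.40, edgeR adjusted p = 0.0699).

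ENSCPOT00000004231.3 (889 bases, fractional estimates, level uncertain) had the largest fall under the rule. It was at 84.2, 84.4, 100.4, 97.4 and 112 CPM in libraries 25 to 29 and at 52.6, 26.6, 39.3, 28.5 and 16.7 CPM in libraries 31, 33, 34, 35 and 36. All 40 µM libraries lay below all 30 µM libraries, library 31 was the closest to them and library 36 the farthest. The difference was -1.53 log2 units (SE 0.24, edgeR adjusted p = 0.0131), and leaving out library 29 gave -1.47 (SE 0.25, edgeR adjusted p = 0.0136). Vehicle had 0 counts in all 5 libraries at 24 h. At 12 h the doses had been close, at 48.6 ± 1.66 and 50.03 ± 13.5 CPM (SD, n = 5), and the dose difference changed between the times by -1.61 (SE 0.31, edgeR adjusted p = 0.0018). The mean at 30 µM was higher at 24 h than at 12 h and the mean at 40 µM lower.

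ENSCPOT00000044055.1 (8292 bases, fractional estimates, level uncertain) had the next largest fall. It was at 4.84, 4.38, 4.77, 5.64 and 4.13 CPM in libraries 25 to 29, and at 3.06, 1.58, 2.52, 2.46 and 2.19 CPM in libraries 31, 33, 34, 35 and 36. The 40 µM libraries were all lower, and library 31 was again the closest to the 30 µM group. The difference was -1.001 log2 units (SE 0.18, edgeR adjusted p = 0.0199), and leaving out library 29 gave -1.05 (SE 0.18, edgeR adjusted p = 0.0153). With limma the difference was -0.37 on log2(TPM + 1) and -0.85 on log2(TPM + 0.1). The mean TPM was 0.86 at 30 µM and 0.44 at 40 µM, below the larger added value. Vehicle at 24 h lay between the doses, at 3.38 ± 0.645 CPM (SD, n = 5), with the 30 µM group higher by 0.49 (edgeR adjusted p = 0.0511) and the 40 µM group lower by -0.51 log2 units (adjusted p = 0.0984). At 12 h the order of the doses was reversed and vehicle was lowest, with 3.57 ± 0.376 CPM in vehicle, 7.60 ± 0.789 at 30 µM and 12.7 ± 1.65 at 40 µM (difference between doses 0.76, edgeR adjusted p = 0.000551). The change of the dose difference was -1.76 (SE 0.19, adjusted p = 7.36e-06).

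**Figure D2:**
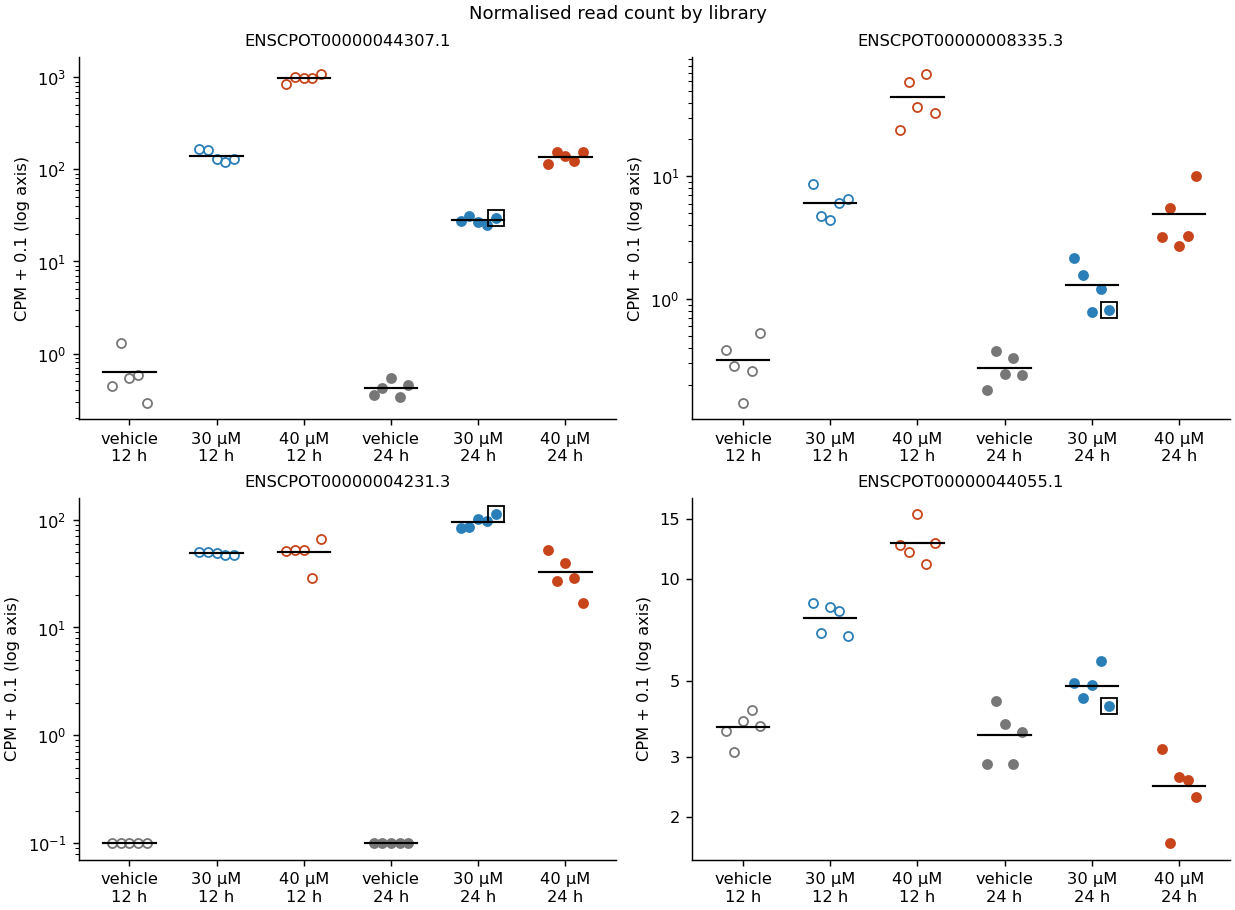
Normalised read count (CPM + 0.1, log axis) of the 4 named transcripts in each of the 30 libraries, with open points at 12 h, filled points at 24 h, a line at the group mean, a square around library 29 and libraries with 0 counts at 0.1. At 24 h the 30 µM and 40 µM points do not overlap in any panel, as the rule required, while at 12 h the doses overlap for ENSCPOT00000004231.3 and stand in the opposite order for ENSCPOT00000044055.1.

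The place of vehicle was examined to see which dose lay farther from the unexposed cells. At 24 h the calls were spread over all orders of the 3 group means. Among the 597 calls, the 40 µM mean was farther from vehicle in 240 (40.2%), the 30 µM mean in 183 (30.7%), and vehicle lay between the doses in 174 (29.1%). Over all tested transcripts these shares were 41.2%, 35.9% and 22.9%, so that for calls the first share was near that of transcripts in general. Without library 29 the 1053 calls gave 35.6%, 29.7% and 34.7%, against 39.3%, 37.8% and 22.9% over all tested in that fit. At 12 h, 5587 of 16684 transcripts (33.5%) were called between the doses. Among them the 40 µM mean was farther in 68.3%, the 30 µM mean in 4.01%, and vehicle was between in 27.7%, against 56.3%, 19.7% and 24% over all tested. These classes use the same libraries as the calls and are a description.

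**Figure D3:**
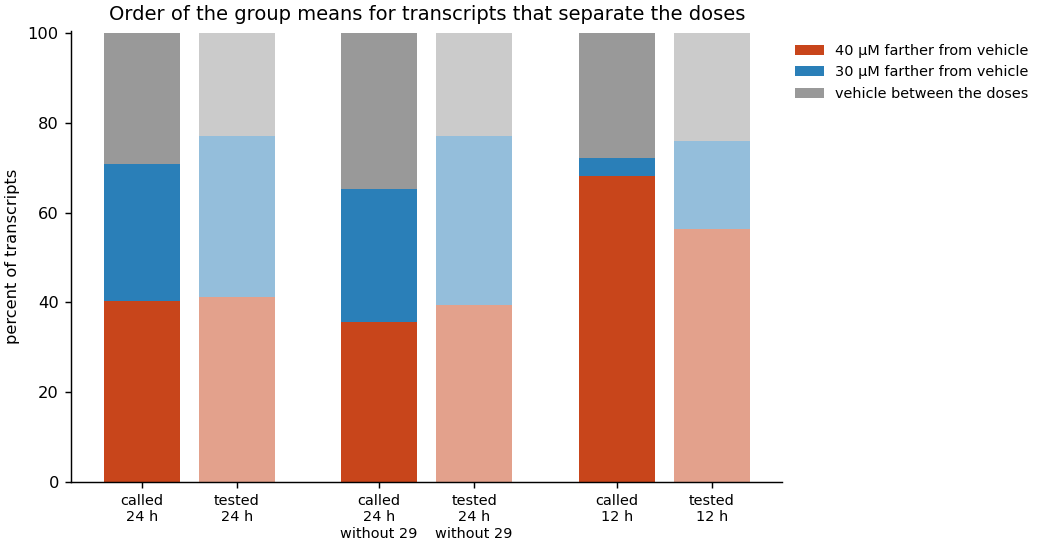
Share of transcripts (percent) by the order of the vehicle, 30 µM and 40 µM group means, for transcripts called between the doses (full colours) and for all transcripts tested (pale colours), at 24 h, at 24 h without library 29 and at 12 h. The 30 µM mean was farther from vehicle in 30.7% of the calls at 24 h and in 4.01% of those at 12 h.

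Each dose had its own comparison with vehicle at 24 h, where 3492 of 16607 transcripts (21%) were called at 30 µM, 4802 of 16890 (28.4%) at 30 µM without library 29, and 4608 of 16672 (27.6%) at 40 µM. These comparisons share the vehicle libraries. The sets below were chosen by a call between the doses and by the order of the same group means. This favours a larger median and more calls at the dose that lay farther from vehicle. Over all tested transcripts, 10.5% were called higher and 10.5% lower at 30 µM, and 13.6% and 14% at 40 µM. In the 104 transcripts that were raised above vehicle and higher at 40 µM, the median log2 fold change against vehicle was 0.53 at 40 µM, with 104 called, and 0.16 at 30 µM, with 49 called. In the 136 that lay below vehicle and lower at 40 µM it was -0.48 at 40 µM, with 136 called, and -0.17 at 30 µM, with 87 called. The dose order was the other way in 2 further sets. In 96 transcripts that lay below vehicle the 30 µM group was the lower one, with medians of -0.54 at 30 µM (95 called) and -0.18 at 40 µM (56 called). In 87 transcripts that lay above vehicle the 30 µM group was the higher one, with medians of 0.60 at 30 µM (87 called) and 0.36 at 40 µM (68 called). Without library 29 the sets grew. The 163 above vehicle and higher at 40 µM had medians of 0.16 at 30 µM and 0.44 at 40 µM, and the 212 below vehicle and lower at 40 µM had -0.16 and -0.45. Where the 30 µM group lay farther from vehicle, the 156 below vehicle had -0.41 at 30 µM and -0.14 at 40 µM, and the 157 above it had 0.45 and 0.19. Of all calls, 2 transcripts had at most 3 counts in every vehicle library, so that these medians hardly rest on such cases.

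The same sets were followed in the 12 h libraries, none of which entered the choice. At 12 h, 29% of transcripts were called against vehicle at 30 µM and 51% at 40 µM, again with shared vehicle libraries. The 136 transcripts lower at 40 µM and below vehicle at 24 h had medians against vehicle of -0.15 at 30 µM and -0.55 at 40 µM at 12 h, and at 12 h 109 of them were called lower and 9 higher at 40 µM than at 30 µM. The 104 higher at 40 µM and above vehicle had medians of 0.12 and 0.30 at 12 h, and of the 103 tested there 53 were called higher and 14 lower at 40 µM. The sets where 30 µM lay farther from vehicle at 24 h were followed in the same way. The 96 transcripts below vehicle had medians of -0.35 at 30 µM and -0.51 at 40 µM at 12 h, with 42 called lower and 16 higher at 40 µM. The 87 above vehicle had medians of 0.83 and 1.05 at 12 h, with 34 called higher and 25 lower at 40 µM. The 30 µM group is the farther one at 24 h in these sets by their definition, and over all transcripts tested at 12 h the 40 µM mean was the farther one in 56.3%. The median difference between the doses at 12 h was -0.15 log2 units in the 96 and 0.07 in the 87 transcripts. Without library 29 these sets had 12 h medians of -0.28 and -0.44, and of 0.62 and 0.68. Of the 156 below vehicle 77 were called lower and 20 higher at 40 µM, and of the 157 above it 63 higher and 29 lower. The 212 below vehicle and lower at 40 µM had medians of -0.16 and -0.54, with 161 called lower and 11 higher. The 162 tested that were above vehicle and higher at 40 µM had 0.13 and 0.22, with 72 called higher and 23 lower.

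The direction of the dose difference was then compared between the times. Calls between the doses at 12 h were higher at 40 µM in 16.8% and lower in 16.7% of 16684 transcripts. Of the 313 transcripts lower at 40 µM at 24 h, 216 (69%) were also lower at 12 h, 172 of them called, and 57 were called in the opposite direction. Of the 283 higher ones tested at 12 h, 139 (49.1%) were also higher there, 91 of them called, and 73 were called in the opposite direction. The share of all transcripts tested at both times with the same direction was 54.6%. At 12 h, 53.4% of all tested transcripts were higher at 40 µM, called or not. The median of the mean counts was 2263.2 in the lower and 903.5 in the higher calls, against 442.2 over all tested. Signed so that the 24 h direction is positive, the median 12 h difference was 0.19 log2 units in the lower and -0.01 in the higher ones, against 0.26 and 0.31 at 24 h itself. Without library 29 the shares were 62.2% of 548 and 47.6% of 502. The calls of at least 2-fold were also followed. Of the 15 transcripts called at least 2-fold higher at 24 h, 14 were tested at 12 h, 11 of these were higher at 12 h and 10 were called higher, with a median of 1.80 log2 units, while 1 was called lower. Of the 4 called at least 2-fold lower, 1 was lower at 12 h, none was called lower and 1 was called higher. All 4 had fractional estimates. The 25 and 7 such transcripts without library 29 included 9 and 0 called in the same direction at 12 h, and 2 and 1 called in the opposite one, of 22 and 7 tested. The 12 h median of these 22 rises was 0.12 log2 units, far below the 1.80 of the calls made with the library. Of the 25 rises called without library 29, 12 had a mean under 50 counts and 15 had fractional estimates. Of the 15 called with it, 6 and 5 did. Over all tested, 2494 of 16664 transcripts had a mean under 50 counts and 62% had fractional estimates.

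**Figure D4:**
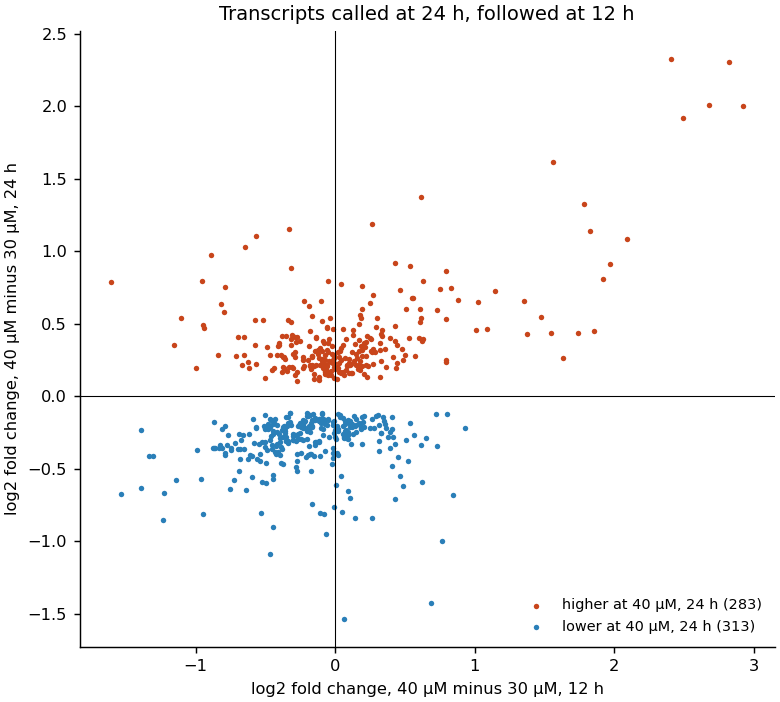
Log2 fold change of 40 µM minus 30 µM at 24 h (y) against the same difference at 12 h (x) for the transcripts called at 24 h, red where higher (283) and blue where lower (313) at 40 µM. The red points spread to either side of 0 at 12 h apart from a few large rises at the upper right, and 69% of the blue points lie left of 0.

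Whether the dose difference itself differed between 24 h and 12 h was tested as an interaction over 20 libraries. It did in 3215 of 17508 transcripts (18.4%), with a higher value of 40 µM minus 30 µM at 24 h in 1687 (9.64%) and a lower one in 1528 (8.73%). Without library 29 it did in 4068 of 17762 (22.9%). Of the 3170 tested at both times, 2731 (86.2%) had the smaller dose difference at 24 h, against 69% of all 16318 transcripts tested at both times. The median absolute difference was 0.31 log2 units in the 12 h and 0.09 in the 24 h libraries, against 0.18 and 0.09 over all of them. Without library 29 the share was 84.9% of 4008, against 68.2% of all tested, with medians of 0.30 and 0.09. In 2237 (70.6%) the fitted sign was not the same, although 130 were called at each time with opposite signs. The sign differed in 73.9% without library 29, and it was the same in 54.6% of all tested at both times. Choosing transcripts by a called change favours opposite signs. Among transcripts that separated the doses at 24 h, the interaction was called in 169 of the 283 higher and in 159 of the 313 lower ones. In 153 and 112 of these the difference was larger at 24 h in the direction seen there, and in 16 and 47 it was smaller. The 24 h libraries that chose these transcripts also enter the interaction, which favours a larger difference at 24 h. Of the transcripts with a called change, 130 had a called dose difference at 24 h and none called at 12 h.

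How each library stood between the doses was measured with that library left out. The other 9 libraries were fitted, and the left-out library was placed between the log2 means of the groups for the transcripts called without it, so that it had no part in their choice. These lists differ between libraries, from 263 to 1053 transcripts, so that the shares do not rest on the same transcripts. Of the 1053 transcripts called without it, it lay nearer to the 40 µM mean in 447 (42.5%) and beyond that mean in 278 (26.4%). The other 30 µM libraries lay nearer to the 40 µM mean in 3.62% to 10.5% of the calls made without them and beyond it in 0.362% to 1.51%. The share for library 29 was 46.9% in transcripts higher at 40 µM and 38.3% in those that were lower. Among the 40 µM libraries, library 31 lay nearer to the 30 µM mean in 184 of 558 calls (33%) but beyond it in 1.97%. Libraries 33, 34, 35 and 36 lay nearer to the 30 µM mean in 4.94%, 10.8%, 19% and 6.35% of calls. Library 36 was the farthest from the 30 µM group, with a median position of -0.38 on a scale from 0 at the mean of its own group to 1 at that of the other, against 0.39 in library 31. The median position of library 29 was 0.30, no closer to the other dose than that of library 31.

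**Figure D5:**
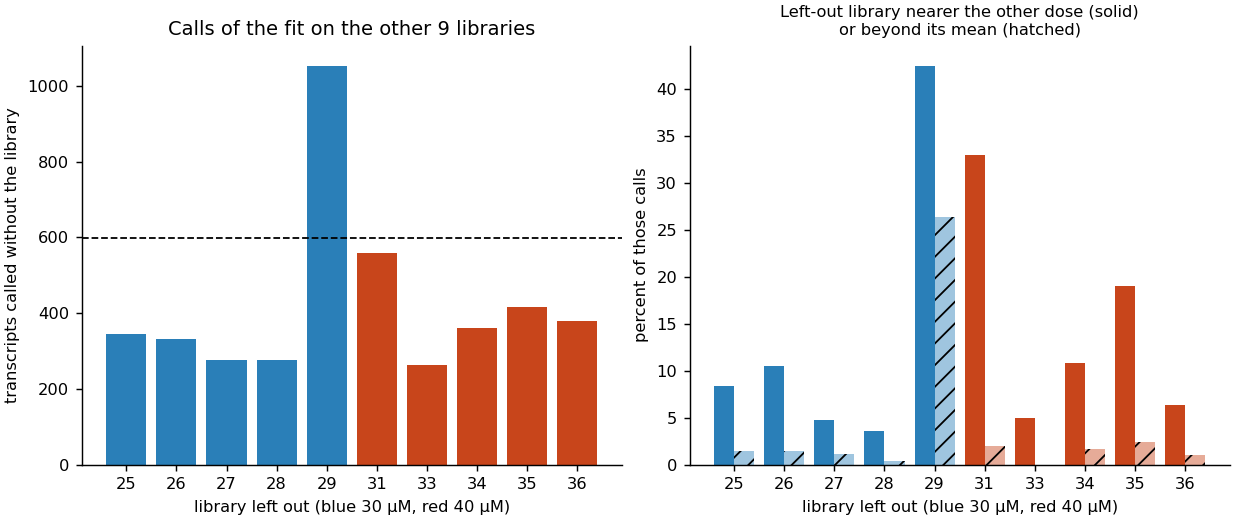
Left, transcripts called between the doses when the library on the x axis was left out, with a dashed line at the 597 calls of all 10 libraries. Right, the percent of those calls in which the left-out library lay nearer the mean of the other dose (solid) or beyond it (hatched), which was 42.5% and 26.4% for library 29 and 33% and 1.97% for library 31.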

How the data were processed

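Poly-A-enriched stranded libraries were pseudo-aligned by the authors with Kallisto 0.42.4 (version per the labels) to the Ensembl guinea pig transcriptome, and the release is not given in the sources used here. The deposited tables hold an estimated count, not normalised, and a TPM value for each of 25824 transcripts. Reads that fit several transcripts are shared by an estimate, so levels of transcripts with fractional estimates (over 0.001 from a whole number) are uncertain. Each deposited table holds 1 library.

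Estimated counts were rounded and tested per transcript in R 4.3.3 with edgeR 4.0.16 (quasi-likelihood F-test, TMM, filterByExpr), with only the libraries of the groups compared in each fit. An adjusted p under 0.1 was called. The study used Sleuth, which was not run. Standard errors were obtained by dividing each log2 fold change by the root of its F statistic. CPM values use TMM factors over 30 libraries. Named transcripts were the 2 largest rises and falls that met the rule in the text. Groups follow the agent and time labels, and title numbers only name libraries. Alternatives used RLE factors, DESeq2 1.42.0, limma 3.58.1, other filters and left-out libraries. The scripts were tested on simulated counts. The comparison, lists and rules were chosen with earlier results of these data known. Planned gene lists and cell type markers could not be used without gene names. The pairwise chi-square per degree of freedom within the groups was at least 6.65, so no library was a copy of another within counting error. This does not show that they came from separate cultures.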

Additional observations from a re-analysis of the deposited data

Results flagged for a closer look

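A single far value was looked for in 40 sets of 5 library values. Chance would give about 2 if the sets were independent, but several measure the same distance of a library, so the 7 found cannot be set against that number. Of these, 5 lay in library 29 and 2 in library 36.

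Library 29 at 30 µM was far from the other 4 libraries of its group on the first principal component of the 10 libraries (50.8 against -12.6 to -0.842), in the sample weight that limma voom gave it (0.201 against 1.29 to 1.66) and in its median correlation with its own group (0.975). It was also far from them in the number of transcripts called without it (1053) and in the percent of those calls in which it lay nearer the other dose (42.5). Library 36 at 40 µM was far from its group on the second principal component (-35.2 against -5.76 to 2.12) and in its median correlation with its own group (0.983).

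The dose difference changed between 24 h and 12 h in 3215 transcripts by the edgeR interaction test. ENSCPOT00000044307.1 (-0.52 log2 units), ENSCPOT00000004231.3 (-1.61) and ENSCPOT00000044055.1 (-1.76) were among them. For the first of these the difference was smaller at 24 h, for the second it appeared at 24 h, and for the last it changed sign.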

How the results depend on the processing

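The count of 597 transcripts between the doses at 24 h was 313 at an adjusted p under 0.05, 1147 with DESeq2, 1094 with all 30 libraries in 1 fit, 1270 with limma voom and sample weights, and from 263 (without library 33) to 1053 (without library 29) with 1 library left out. It was 878 without libraries 29 and 36, an alternative chosen after the data were seen. With the place of each title number in its group's run of numbers as a replicate block it was 1 (ENSCPOT00000044307.1), and the other 3 named transcripts were not called, with differences of 1.71 (ENSCPOT00000008335.3), -1.46 (ENSCPOT00000004231.3) and -1.03 (ENSCPOT00000044055.1) log2 units. The block takes up degrees of freedom, which lowers the power of the test. Libraries 26 and 36 had no partner at their place, so they added nothing to the estimated dose difference. How much of the fall in calls came from this was not tested. Libraries at the same place deviated from their group means with r of -0.04, 0.02, -0.05 and -0.17 over the transcripts tested, so these places are not shown to pair libraries. The labels give no replicate numbers that the groups share, so this block is not known to be a pairing. It left 1 of the 19 calls of at least 2-fold. With RLE factors 619 were called, without a filter 427, and at equal depth 590. The interaction count of 3215 lay between 2315 and 4068 in 26 alternatives. The difference in detected transcripts was 28.4 at a minimum of 5 counts, 38.2 at equal depth and from -138.6 to 85.4 with 1 library left out, with exact permutation p of 0.341 or more. Some alternatives have a cause built in, such as fewer libraries, a stricter threshold or the degrees of freedom used by the block. The cause of the other shifts was not tested.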
